A study of Mus musculus with 16 samples.

Results

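The 8 genes described here encode coactivators and corepressors of nuclear receptors: Ncoa1, Ncoa2, Ncoa3, Crebbp, Ep300, Arid1a, Ncor1 and Nrip1. They were chosen by gene symbol, and all 8 were among the 31274 features of the expression table. All 8 also had a mean of at least 1 FPKM (fragments scaled by transcript length and library size) over the libraries, the level that 15408 features reached and above which features were tested. A steroid receptor bound to its hormone recruits p160 coactivators of the NCOA family, which in turn bring in the acetyltransferases CBP and p300. These proteins open chromatin together with remodelling complexes such as SWI/SNF, to which ARID1A belongs. Corepressors such as NCOR1 bring in deacetylases instead, and RIP140, the product of Nrip1, binds receptors that carry hormone and damps transcription. In the mouse uterus, SRC-2, the product of Ncoa2, is known as a coactivator of the progesterone receptor, and Arid1a and Nrip1 are known for their need in female fertility.

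The RNA came from whole mouse uterus, 6 h after either oil or progesterone (P4), from animals without ovaries for 2 weeks. The genotype was PgrcrePgrALsL/+, called PRA here, or PgrcrePgrBLsL/+, called PRB here. There were 4 libraries in each of the groups PRA oil, PRA P4, PRB oil and PRB P4. By these names, both strains carry Cre at the Pgr locus and a transgene for receptor A or receptor B behind a stop cassette, so the transgene is switched on in cells that use Pgr. No library without a transgene was analysed here. The labels give littermate housing up to 8 weeks of age, and they call the replicates biological. Another field of the labels speaks of mating and of tissue from day 4 of pregnancy, which does not match the surgery and hormone fields used for the groups here. Strain and treatment follow the positions on the sample plate, so position and group cannot be told apart.

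The labelled tissue carried its markers: all 7 uterine marker genes were measured, and their summed level ran from 484.5 to 821.2 FPKM over the libraries. Between 14807 and 15336 features stood at 1 FPKM or more in each library, with the lower counts in P4 libraries, and the FPKM values summed to 499748 to 595748. A depth of 52.9 to 66.6 M fragments was implied for the libraries, on the scale of the deposited values. It is the depth at which most values of single-transcript features would equal 1 fragment. The peak was sought only within a range of depths set beforehand and held 59 to 101 features per library, so the depth is a rough guide. On that basis the lowest value of any member rested on about 2800 fragments, a counting error of 1.89%. The third PRB P4 library stood apart, with the lowest weight in limma (0.238) and 78.5 FPKM of Pgr against 121.2 to 125.7 in the other PRB P4 libraries. Leaving it out changed the call of none of the 8 genes in any of the 5 comparisons fitted, and values that it moved are given with the genes. In whole tissue, fewer cells of a type and less RNA per cell cannot be told apart. With P4, the summed endothelial markers went from 305.9 to 206.8 FPKM in PRA and from 309.5 to 269.7 in PRB, and the stromal markers from 1320 to 1158 and from 1453 to 1204. The epithelial markers went from 1073 to 1255 FPKM in PRA and from 1076 to 1521 in PRB. These sums follow the abundant markers, and single markers went both ways. Of 9 endothelial markers tested, 0 rose and 4 fell in PRA, and 1 rose and 1 fell in PRB. Of 10 stromal markers, 4 rose and 3 fell in PRA, and 3 rose and 5 fell in PRB. Of 12 epithelial markers, 4 rose and 5 fell in PRA, and 4 rose and 3 fell in PRB. Gland markers went from 163.5 to 236.3 FPKM in PRA and from 186.4 to 274.8 in PRB, with Prss29 listed at 0 in all groups but PRB P4. Smooth muscle markers went from 1500 to 1686 and from 1460 to 1506 FPKM, mesothelial markers from 147.3 to 99.4 and from 146.3 to 112.1, and leukocyte markers from 34.08 to 31.99 and from 37.2 to 39.5. Markers of skeletal muscle, fat, red cells and ovary summed to 315.4 to 487.8 FPKM over the group means. The part of any of these markers in the results below was not tested.

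In the GENCODE M21 annotation (mm10) Ncoa1 lies at chr12:4247362-4477182, Ncoa2 at chr1:13139105-13374083, Crebbp at chr16:4081328-4213997, Nrip1 at chr16:76287400-76373827 and Arid1a at chr4:133679008-133756769, all on the minus strand. Ep300 lies at chr15:81585351-81652077 on the plus strand, and the positions of Ncoa3 and Ncor1 are given with their overlaps. All 8 are protein-coding. They covered a wide range of levels. Ncor1 stood highest, at a mean of 56.3 FPKM over the 16 libraries, followed by Arid1a at 44.7 and Ep300 at 31.0. Ncoa3 (21.1), Ncoa2 (17.3), Crebbp (16.7) and Ncoa1 (15.6) lay close together, and Nrip1 was lowest at 9.31 FPKM. In all 4 groups Ncor1, Arid1a and Ep300 kept this order with no overlap between neighbours. Below them the order depended on treatment. With oil, Ncoa2 stood above Ncoa1 and Nrip1 stood apart at the bottom. With P4, Ncoa1 stood above Ncoa2 in both strains, and in PRB P4 the neighbours from Ncoa3 down through Ncoa1, Crebbp and Nrip1 to Ncoa2 overlapped at each step.

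**Figure D1:**
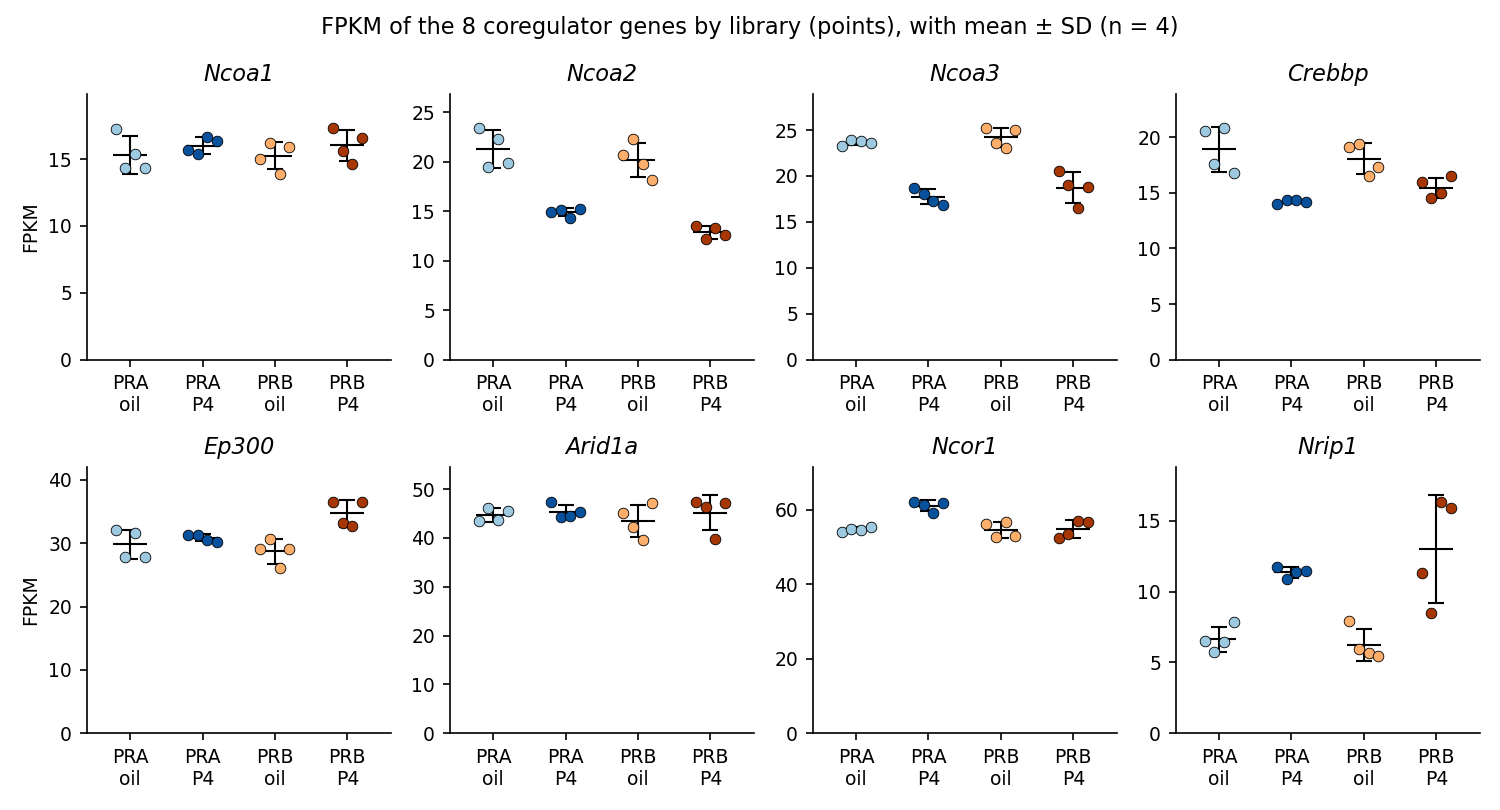
FPKM of each gene in each of the 16 libraries (points), with the group mean ± SD (bars, n = 4) on an axis that starts at 0. Ncoa2, Ncoa3 and Crebbp sit lower with P4 in both strains, Nrip1 sits higher, and Ncoa1 and Arid1a overlap between all groups.

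Progesterone changed 5 of the 8 genes in each strain. Ncoa2, Ncoa3 and Crebbp fell and Nrip1 rose in both strains. Ncor1 rose in PRA, and Ep300 rose in PRB. Changes were tested with limma on log2(FPKM + 1) over all 15408 features, and a gene is called changed at a Benjamini-Hochberg adjusted p under 0.05. The P4 response was broad: 69.8% of all features were called in PRA and 69.1% in PRB, so the members' 5 of 8 (62.5%) lay near the background in each. In PRA, 2 members were higher and 3 lower, against 36.6% and 33.2% of all features, and the same 5 genes had oil and P4 libraries that did not overlap, against 66.2% of features. In PRB, 2 were higher and 3 lower, against 36.2% and 32.9%, and 5 genes did not overlap, against 61% of features. The median change of the members was 0.03 in both strains, and of all features 0.01 in PRA and 0.00 in PRB, on the log2 scale.

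**Figure D2:**
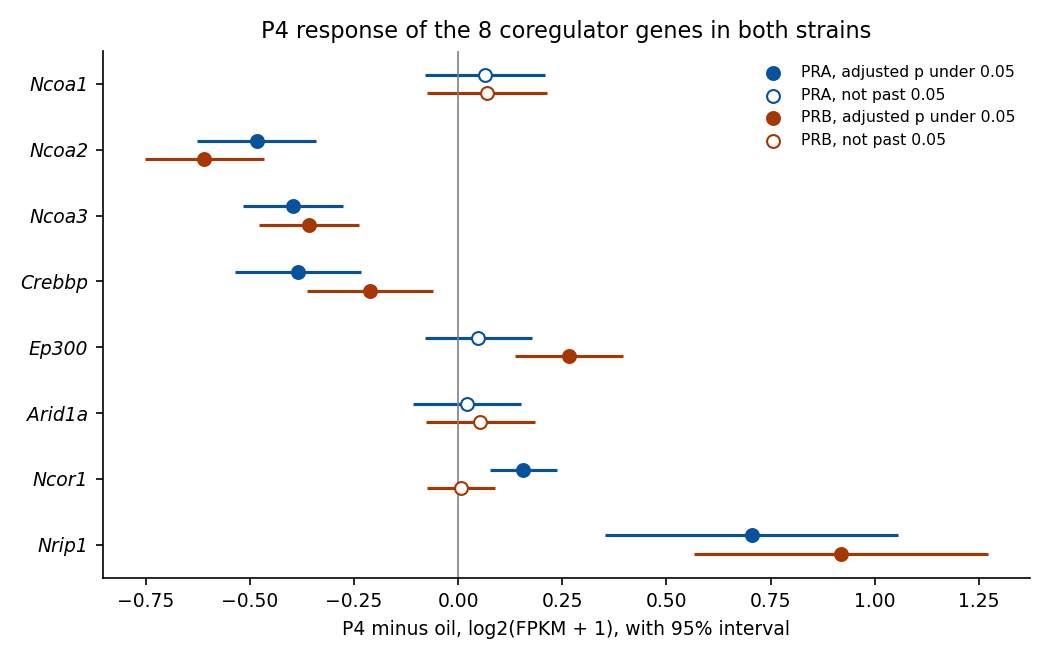
P4 minus oil on the log2(FPKM + 1) scale for each gene (points) with the 95% interval of the fit (lines), in PRA (blue) and PRB (dark orange). Filled points passed an adjusted p of 0.05: Ncoa2, Ncoa3 and Crebbp lie below 0 and Nrip1 above 0 in both strains, Ncor1 is filled in PRA, and Ep300 is filled in PRB.

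Of the p160 coactivators, Ncoa2, which encodes SRC-2, fell the most. In PRA its libraries read 23.4, 19.5, 22.4 and 19.9 FPKM with oil and 14.9, 15.1, 14.3 and 15.2 with P4. In PRB they read 20.7, 22.3, 19.8 and 18.2 with oil and 13.6, 12.2, 13.3 and 12.6 with P4. Every P4 library lay below every oil library in both strains. Ncoa2 fell by 0.48 in PRA (SE 0.07, limma, adjusted p = 1.32e-05) and by 0.61 in PRB (SE 0.07, adjusted p = 1.25e-06). In FPKM, the means differed by -30.0% and -36.3%. With P4, all 4 PRB libraries also lay below all 4 PRA libraries, yet the difference of -0.20 between strains did not pass the test (limma, adjusted p = 0.0604). It passed under 5 of 26 alternatives, with an adjusted p between 0.00656 and 0.148 over all of them.

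Ncoa3, which encodes SRC-3, fell in both strains as well. Its PRA libraries read 23.3, 23.9, 23.8 and 23.6 FPKM with oil and 18.7, 18.0, 17.3 and 16.9 with P4. Its PRB libraries read 25.2, 23.6, 23.1 and 25.03 with oil and 20.5, 19.0, 16.5 and 18.8 with P4. The P4 values all lay below the oil values, and the strains overlapped under both treatments. Ncoa3 fell by 0.40 in PRA (SE 0.06, limma, adjusted p = 1.74e-05) and by 0.36 in PRB (SE 0.06, adjusted p = 4.75e-05). In the GENCODE M21 annotation an exon of Ncoa3 (chr2:165992636-166073242, plus strand, mm10) overlaps an exon of Sulf2 on the other strand. Sulf2, which encodes an extracellular sulfatase, went from 13.8 ± 2.61 to 69.3 ± 11.1 FPKM in PRA and from 16.6 ± 2.93 to 53.2 ± 8.42 in PRB (SD, n = 4). Whether the counting used strand is not given in the sources used here, so a share of Sulf2 fragments in the Ncoa3 values cannot be told apart. Sulf2 moved in the opposite direction to Ncoa3.

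Ncoa1, which encodes SRC-1, was not called in any comparison. Its PRA libraries ranged from 14.3 to 17.3 FPKM with oil and from 15.3 to 16.6 with P4, and its PRB libraries from 13.9 to 16.2 and from 14.6 to 17.3. All 4 groups overlapped. An exon of Ncoa1 overlaps one of 4921501I09Rik on the other strand. The P4 change was 0.06 in PRA (95% interval -0.08 to 0.21, limma, adjusted p = 0.414) and 0.07 in PRB (-0.08 to 0.21, adjusted p = 0.378). The summed level of the 3 p160 genes went from 60.2 ± 3.04 to 48.6 ± 0.453 FPKM in PRA and from 59.7 ± 2.29 to 47.7 ± 2.89 in PRB (SD, n = 4). The share of Ncoa1 in that sum went from 25.4% ± 1.08 to 32.9% ± 1.44 in PRA and from 25.5% ± 1.153 to 33.6% ± 0.678 in PRB. The share of Ncoa2 went from 35.3% to 30.6% and from 33.9% to 27.1%, and that of Ncoa3 from 39.3% to 36.5% and from 40.6% to 39.2%, overlapping in both strains. Oil and P4 libraries did not overlap for the sum or for the shares of Ncoa1 and Ncoa2, in either strain. Each of these gave an exact two-sided permutation p of 0.0286, the smallest that 4 against 4 libraries allow. Over the 28 tests made on such proportions, the adjusted p was 0.0727, which does not pass 0.05. With p at its floor, the adjusted p was set by how many of the 28 tests reached the floor. It therefore cannot decide on any single proportion.

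Of the acetyltransferase genes, which encode the paralogs CBP and p300, Crebbp fell in both strains and Ep300 rose in PRB. Crebbp read 20.5, 17.6, 20.8 and 16.8 FPKM in PRA oil and 14.0, 14.3, 14.3 and 14.2 in PRA P4. In PRB it read 19.1, 19.4, 16.5 and 17.3 with oil and 15.9, 14.5, 14.9 and 16.5 with P4. In PRA the groups were far apart, while in PRB the highest P4 library (16.48 FPKM) and the lowest oil library (16.5) nearly touched. Crebbp fell by 0.39 in PRA (SE 0.07, limma, adjusted p = 0.00019) and by 0.21 in PRB (SE 0.07, adjusted p = 0.0151). The PRB call was lost without the second PRB oil library (-0.18, adjusted p = 0.0502) and after a trend with transcript length was removed (-0.11, adjusted p = 0.14).

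Ep300 read 32.1, 27.9, 31.6 and 27.8 FPKM in PRA oil and 31.3, 31.3, 30.5 and 30.2 in PRA P4, and these groups overlapped. In PRB it read 29.1, 30.7, 26.1 and 29.1 with oil and 36.6, 33.2, 32.7 and 36.4 with P4. All PRB P4 libraries lay above all PRB oil libraries and above all PRA P4 libraries. Ep300 rose in PRB by 0.27 (SE 0.06, limma, adjusted p = 0.00123), a mean 20.8% higher, and its change in PRA was 0.05 (95% interval -0.08 to 0.18, adjusted p = 0.49). The difference between these responses was 0.22 (95% interval 0.03 to 0.40) and did not pass over all features (limma, adjusted p = 0.218). The strain difference with P4 was 0.16 (adjusted p = 0.0808). After quantile normalization the PRB change of Ep300 was 0.09 and was no longer called (adjusted p = 0.2).

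The balance within the pair was read as a ratio. The ratio of Crebbp to Ep300 FPKM was 0.640, 0.631, 0.658 and 0.604 in PRA oil and 0.447, 0.458, 0.469 and 0.468 in PRA P4. It was 0.658, 0.631, 0.633 and 0.596 in PRB oil and 0.436, 0.437, 0.458 and 0.452 in PRB P4. No P4 library came near an oil library, and the strains overlapped with either treatment. The difference was -0.173 in PRA and -0.184 in PRB (exact two-sided permutation test, p = 0.0286, adjusted p = 0.0727 over the 28 tests, which does not pass 0.05). Here too p is the smallest possible, so the adjusted p cannot decide. A ratio within a library does not depend on a common scale factor, and after quantile normalization the differences were -0.134 and -0.137, again without overlap. The summed level of the pair went from 48.8 ± 4.31 to 45.1 ± 0.555 FPKM with P4 in PRA and from 46.8 ± 3.21 to 50.2 ± 2.93 FPKM in PRB (SD, n = 4). Oil and P4 overlapped for the sum, and the PRB P4 sums all lay above the PRA P4 sums. Within groups the genes varied together: over the 16 deviations from the group means, Pearson's r was 0.90 and Spearman's rho 0.91 (0.89 for r without the 2 libraries farthest out). These points share library and scaling, and the values are a description. With the group means kept, r was -0.15.

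**Figure D3:**
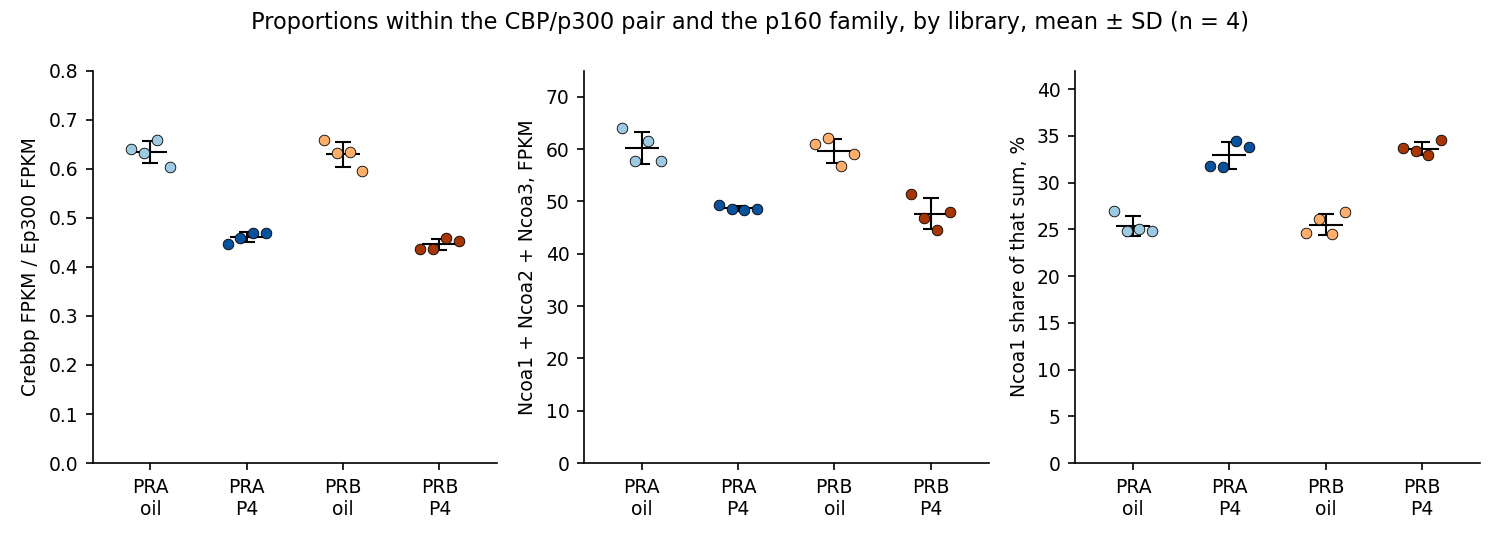
Ratio of Crebbp to Ep300 FPKM, summed FPKM of Ncoa1, Ncoa2 and Ncoa3, and the share of Ncoa1 in that sum, for each library (points) with the group mean ± SD (bars, n = 4) on axes that start at 0. The ratio lies at 0.596 or more with oil and at 0.469 or less with P4, and neither the sum nor the share overlaps between treatments in either strain.

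Arid1a, the gene of the DNA-binding subunit of a SWI/SNF complex, was not called in any comparison. In PRA its libraries ranged from 43.4 to 46.1 FPKM with oil and from 44.2 to 47.4 with P4. In PRB they ranged from 39.6 to 47.2 and from 39.8 to 47.4, with overlap between all groups. The P4 change was 0.02 in PRA (95% interval -0.11 to 0.15, limma, adjusted p = 0.779) and 0.05 in PRB (-0.08 to 0.18, adjusted p = 0.452). Without the third PRB P4 library the PRB change was 0.11 (adjusted p = 0.0706). After quantile normalization, which gives every library the same distribution of values, Arid1a fell in both strains, by 0.16 (adjusted p = 0.0177) and 0.17 (adjusted p = 0.0141).

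Ncor1, the scaffold that ties receptors to the deacetylase HDAC3, was the only member called between the strains. In PRA it read 54.0, 54.9, 54.7 and 55.3 FPKM with oil and 62.1, 61.4, 59.0 and 61.9 with P4. In PRB it read 56.2, 52.7, 56.6 and 53.0 with oil and 52.3, 53.5, 57.0 and 56.6 with P4. The PRA P4 libraries lay above all other 12 libraries, which overlapped. Ncor1 rose in PRA by 0.16 (SE 0.04, limma, adjusted p = 0.00188), a mean 11.7% higher, and its change in PRB was 0.01 (95% interval -0.07 to 0.09, adjusted p = 0.896). With P4, PRB minus PRA was -0.15 (SE 0.04, limma, adjusted p = 0.0142). That comparison and the PRA response share the PRA P4 libraries. The difference between the responses was -0.15 (95% interval -0.26 to -0.04) and did not pass over all features (limma, adjusted p = 0.168).

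The size and direction of the Ncor1 change depended on the scaling. After quantile normalization it was -0.07 in PRA (limma, adjusted p = 0.172) and -0.26 in PRB (adjusted p = 6.6e-05). It was the only 1 of 26 alternatives under which the rise in PRA was lost. The strain difference with P4 held under quantile normalization and was lost after removal of the length trend (-0.09, adjusted p = 0.123). An exon of Ncor1 (chr11:62316426-62458541, minus strand, mm10) overlaps an exon of Ttc19 on the other strand. Ttc19, which encodes a mitochondrial protein, went from 9.83 ± 0.459 to 12.1 ± 0.722 FPKM in PRA and from 9.77 ± 0.411 to 10.3 ± 0.235 in PRB (SD, n = 4), so the part of its fragments in the Ncor1 values cannot be told apart.

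Nrip1, which encodes RIP140, rose the most among the members. In PRA it read 6.49, 5.71, 6.43 and 7.88 FPKM with oil and 11.8, 10.9, 11.4 and 11.5 with P4. In PRB it read 7.93, 5.98, 5.63 and 5.47 with oil and 11.3, 8.48, 16.4 and 15.9 with P4. Every P4 library lay above every oil library of its strain, and the PRB P4 libraries spread more widely than any other group. Nrip1 rose by 0.71 in PRA (SE 0.16, limma, adjusted p = 0.00143), 1.72-fold in FPKM, and by 0.92 in PRB (SE 0.16, adjusted p = 0.00016), 2.08-fold. Without the third PRB P4 library, which had the highest value, the PRB change was 0.80 (adjusted p = 0.000589). The strains did not differ past the threshold with P4 (0.14, adjusted p = 0.608) or in response (0.21, 95% interval -0.28 to 0.71, adjusted p = 0.7). These values rest on single libraries: without the third PRB P4 library they were 0.02 and 0.10, without the fourth 0.03 and 0.11, and without the second 0.31 and 0.39, and none passed. The ratio of Nrip1 to Ncor1 went from 0.121 ± 0.0159 to 0.186 ± 0.00665 in PRA and from 0.114 ± 0.0188 to 0.236 ± 0.0607 in PRB (SD, n = 4), without overlap (exact two-sided permutation test, p = 0.0286, adjusted p = 0.0727).

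The 250 bases before the annotated starts are shown for Nrip1, the member that rose in both strains, and for Ncoa1 and Arid1a, which were not called. They are RefSeq sequences on GRCm38.p6, and each was read 5′ to 3′ along the gene, which lies on the minus strand. Capitals mark GGTCA, the core of many nuclear receptor elements, and GGGCGG, the GC box bound by SP1-type factors, on either strand. Adjoining GC boxes can share bases. No annotated exon overlaps the 4 stretches printed. Nrip1 has 2 listed starts, and the upstream stretch of the outer one is chr16:76373828-76374077, of the inner one chr16:76373050-76373299. The stretch of Ncoa1 is chr12:4477183-4477432, and that of the outer start of Arid1a is chr4:133756770-133757019.
Nrip1 outer start: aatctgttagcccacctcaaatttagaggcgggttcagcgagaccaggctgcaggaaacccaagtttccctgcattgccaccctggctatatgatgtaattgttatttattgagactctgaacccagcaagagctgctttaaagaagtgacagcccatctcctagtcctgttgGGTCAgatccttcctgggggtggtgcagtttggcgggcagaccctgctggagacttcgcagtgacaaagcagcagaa
Nrip1 inner start: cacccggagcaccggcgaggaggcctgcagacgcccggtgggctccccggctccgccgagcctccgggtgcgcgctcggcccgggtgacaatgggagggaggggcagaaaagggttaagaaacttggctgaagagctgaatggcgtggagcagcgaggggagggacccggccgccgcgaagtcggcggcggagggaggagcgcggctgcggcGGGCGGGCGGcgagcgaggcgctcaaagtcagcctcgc
Ncoa1 start: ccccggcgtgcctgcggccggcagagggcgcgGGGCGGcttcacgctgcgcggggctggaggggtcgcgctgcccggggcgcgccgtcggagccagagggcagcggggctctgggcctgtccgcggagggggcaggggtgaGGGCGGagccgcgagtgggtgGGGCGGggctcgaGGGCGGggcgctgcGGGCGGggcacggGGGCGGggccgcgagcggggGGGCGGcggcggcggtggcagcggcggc
Arid1a outer start: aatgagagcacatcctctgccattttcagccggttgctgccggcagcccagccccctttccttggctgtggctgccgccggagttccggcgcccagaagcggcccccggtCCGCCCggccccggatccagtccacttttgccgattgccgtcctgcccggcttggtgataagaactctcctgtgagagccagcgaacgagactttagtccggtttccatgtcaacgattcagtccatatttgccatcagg

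Of the 8 members, all but Ncoa2 and Ncoa3 had an upstream stretch in the RefSeq table, 9 in all for 6 genes, of which 3 (for Ncor1, Ep300 and Crebbp) overlap an annotated exon and were counted too. GGTCA was found in 1 of the 9 stretches, at the outer start of Nrip1, against 35.2% of the 32851 stretches of the same length. The motif ACANNNTGT, which reads the same on both strands and is the core of the element shared by progesterone and glucocorticoid receptors, was in 0 of 9, against 5.84% of all stretches. GGGCGG was in 7 of 9, against 32.7%, with 7 matches before Ncoa1, 7 before the inner start of Arid1a, 2 before the inner start of Nrip1 and none before its outer start. CpG dinucleotides numbered 4 at the outer and 32 at the inner start of Nrip1, 40 before Ncoa1 and 44 before Crebbp, against a median of 6. The stretches of all genes were not matched to the members' for base content, on which GC box matches depend. The starts in use in these uteri are not known from gene-level values. These matches describe letters and not binding.

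With oil, none of the 8 genes differed between the strains in limma, against 0.117% of all features, and the strains overlapped for all 8, where 3.39% of features did not overlap. Their differences lay between -0.08 (Nrip1) and 0.03 (Ncoa3) on the log2 scale, and the smallest unadjusted p was 0.319 (Ncoa2), so 0 of 8 had one under 0.05, against 5.21% of features. With P4, 1 of 8 was called (Ncor1, lower in PRB), against 16% of all features, 7.75% higher and 8.29% lower. The strains did not overlap for 4 of 8, against 20.2% of features: Ep300 and Crebbp were higher in every PRB P4 library, and Ncor1 and Ncoa2 lower. For Crebbp, PRB P4 ran from 14.51 to 16.48 FPKM and PRA P4 from 14.02 to 14.34, a difference of 0.11 that did not pass (limma, adjusted p = 0.296). In the difference of the responses, none of the 8 was called, against 2.28% of features, and 2 (Ncor1 and Ep300) had an unadjusted p under 0.05, against 16.5% of features. Pgr, the gene of both transgenes, went from 64.9 ± 5.52 to 73.9 ± 1.80 FPKM with P4 in PRA and from 83.5 ± 4.49 to 112 ± 22.3 FPKM in PRB (SD, n = 4). It was higher in PRB than in PRA with P4 (0.57, limma, adjusted p = 0.00575). Values per gene symbol do not tell transgene RNA from that of the Pgr gene itself, and the annotation behind them is not given. With all libraries Pgr was not called between strains with oil (0.36, limma, unadjusted p = 0.00819, adjusted p = 0.588) or in response (0.21, adjusted p = 0.583). Yet with oil every PRB library (79.45 to 87.59 FPKM) lay above every PRA library (56.76 to 68.89 FPKM), so equal Pgr levels with oil are not shown. Without the third PRB P4 library its PRB P4 mean was 123.0 ± 2.41 FPKM (SD, n = 3). The strain difference with P4 was then 0.73, and that in response 0.37. The difference with oil, which does not use that library, stayed at 0.36 (limma, adjusted p = 0.0205), as all groups share 1 estimate of the spread. That library was set apart partly by its Pgr value, so tests of Pgr without it cannot decide whether the strains differ. The part of the Pgr level in the strain difference of Ncor1 was not tested.

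The likeness of other genes to the members was read from Pearson's r of log2(FPKM + 1) over the 16 libraries, with group means kept, as a description. Closest to Ncoa2 were Notch2 (0.99), Hmga2 (0.99) and Zfp395 (0.99), and closest to Ncoa3 were Pagr1a (0.98), Rhoq (0.98) and Prrt2 (0.98). Crebbp was closest to Vps11 (0.97), Slc25a51 (0.97) and Kmt2a (0.96), and Nrip1 to Dpy19l4 (0.96), Mef2a (0.95) and Golga3 (0.95). Ep300 was closest to Tfip11 (0.92), Ncor1 to Aldh1b1 (0.90), Arid1a to Setd2 (0.90) and Ncoa1 to Cyp2t4 (0.85). Over the deviations from the group means, which leave out the P4 response, the closest were Tnxb for Ncoa1 (0.88), Plag1 for Ncoa2 (0.94), Bahd1 for Ncoa3 (0.94), Elmsan1 for Crebbp (0.93), Sned1 for Ep300 (0.91), Atxn2 for Arid1a (0.95), Ccdc71 for Ncor1 (0.84) and Ccnt1 for Nrip1 (0.94). None of these was first in both readings.

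The wider coregulator list held 84 genes beside the members, of which 81 were tested. In PRA 41 rose and 19 fell, and in PRB 42 rose and 18 fell, each 74.1% of the list, near the 69.8% and 69.1% of all features, with medians of 0.17 and 0.16. In all, 39 of the 81 rose in both strains and 17 fell in both, against 4926 and 4310 of all 15408 features. None was called in opposite directions, which was rare among all features too (42 of 15408). After quantile normalization the split of the list was 37 to 28 in PRA and 28 to 27 in PRB. Of all features called, 50.8% and 49.3% were then higher, against 52.5% and 52.4% as deposited. The size of the list's surplus of rises thus depended on the scaling: it was smaller in PRA and nearly gone in PRB. The members, with 2 higher to 3 lower in each strain as deposited, split 1 to 4 in PRA and 1 to 5 in PRB after quantile normalization. With removal of the length trend, the members in PRB split 3 to 2.

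The counts by group below stand beside 69.8% of all features called in PRA (36.6% higher, 33.2% lower). In PRB the share was 69.1% (36.2% higher, 32.9% lower). Of the 4 other NCOA genes, 3 rose in PRA and 4 in PRB, and none fell. Ncoa4, a coactivator that also serves as the ferritin cargo receptor, rose by 0.72 in PRA and 0.88 in PRB, and Ncoa7 by 0.73 and 0.76. Ncoa6 rose by 0.16 in each strain, and Ncoa5 by 0.16 in PRB. After quantile normalization Ncoa6 was not called in either strain and Ncoa5 had the opposite sign (-0.11 in PRA, -0.06 in PRB). After median-ratio scaling Ncoa6 was not called either. Among 11 acetyltransferase and methyltransferase genes, 5 rose and 3 fell in PRA, and 6 rose and 2 fell in PRB. Of these 11, 72.7% were called in each strain, near the share of all features. Prmt1, the main arginine methyltransferase, rose by 1.19 in PRA and 1.08 in PRB. The paralogs Kat2a and Kat2b moved apart, as Kat2a rose by 0.75 and 0.59 and Kat2b, which encodes PCAF, fell by 0.75 and 0.72. Paxip1, a partner of the KMT2C and KMT2D methyltransferases, rose by 0.58 and 0.37.

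Of 17 further SWI/SNF subunits, 10 rose and 4 fell in PRA, and 9 rose and 4 fell in PRB. Called were 82.4% and 76.5%, against 69.8% and 69.1% of all features. Actl6a rose from 12.1 to 24.8 FPKM in PRA (0.99) and from 12.01 to 22.1 in PRB (0.83), and Smarcd3, the gene of BAF60C, rose by 0.97 and 0.92. Smarca2, 1 of the paired ATPase genes, fell by 0.62 and 0.51, and Bcl7a by 0.80 and 0.81. All 9 Mediator subunits were called in PRA, 6 higher and 3 lower, and 7 in PRB, 5 higher and 2 lower. The PRB share was 77.8%, and all features again stood at 69.8% in PRA and 69.1% in PRB. Med17 rose by 0.32 and 0.46, the cyclin gene Ccnc by 0.46 and 0.44 and the kinase gene Cdk8 by 0.44 and 0.19. The Cdk8 call in PRB was lost under 7 of 26 alternatives: both scalings (0.02 after quantile normalization, 0.14 after median-ratio scaling), the libraries of the comparison alone, and without the second or the third oil library or the second or the fourth P4 library (0.15 to 0.18). Med24 fell in PRA (-0.46), and its PRB change was -0.26 (limma, adjusted p = 0.2). The PRA call was lost without the first or the third oil library (adjusted p = 0.085 and 0.0943) or the third or the fourth P4 library (adjusted p = 0.0597 and 0.0569), and Med24 fell in PRB without the third P4 library (-0.40, adjusted p = 0.044).

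Of 6 other genes of the NCOR and SMRT complex, 1 rose and 3 fell in each strain. Called were 66.7% in each, near the 69.8% and 69.1% of all features. Tbl1xr1 fell by 0.59 in PRA and 0.57 in PRB, its paralog Tbl1x by 0.20 and 0.35, and the demethylase gene Kdm4a by 0.23 and 0.31. Hdac3, the deacetylase gene of the complex, rose by 0.36 and 0.24, a rise not called in either strain after quantile normalization (0.14 in PRA, -0.03 in PRB). Of 18 other corepressor and deacetylase genes tested, 8 rose and 2 fell in PRA, and 9 rose and 3 fell in PRB. Called were 55.6% in PRA, below the 69.8% of all features, and 66.7% in PRB, near the 69.1% of all features. Hdac5, a class II deacetylase gene, fell from 78.7 ± 4.02 to 27.0 ± 3.2 FPKM in PRA and from 78.1 ± 7.6 to 30.5 ± 4.15 in PRB (SD, n = 4), by 1.52 and 1.33 on the log2 scale. Phb rose by 1.00 and 0.90, Hdac2 by 0.77 and 0.68, and Hr, the hairless corepressor gene, by 0.66 and 0.86.

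Among 16 other coactivator genes, 8 rose and 4 fell in each strain. Pprc1 and Ppargc1a, which encode coactivators of the PGC-1 family, moved in opposite directions. Pprc1 rose from 17.1 to 62.0 FPKM in PRA (1.81) and from 18.4 to 68.1 in PRB (1.85), and Ppargc1a fell from 7.54 to 1.41 (-1.83) and from 6.70 to 1.25 (-1.78). Sra1, whose RNA and protein act as steroid receptor coactivators, rose from 43.3 to 87.8 FPKM in PRA (1.01) and from 42.4 to 135 in PRB (1.65). Cited2, which encodes a partner of CBP and p300, rose from 35.7 to 61.2 FPKM in PRA (0.77) and from 38.2 to 143 in PRB (1.85). All changes in these paragraphs are limma differences of log2(FPKM + 1).

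**Figure D4:**
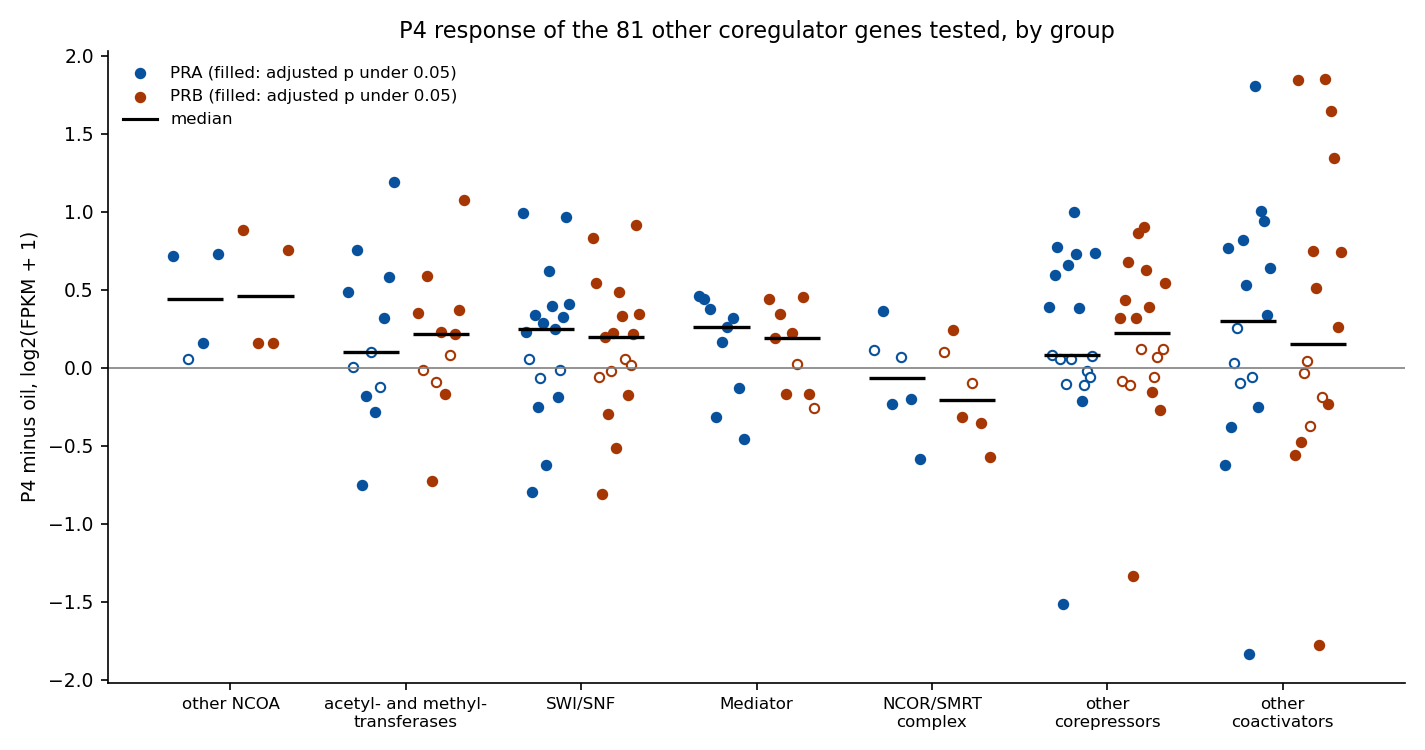
P4 minus oil on the log2(FPKM + 1) scale for the 81 other coregulator genes tested (points), by group, in PRA (blue) and PRB (dark orange), with filled points past an adjusted p of 0.05 and a line at each median. The NCOR/SMRT complex is the group whose medians lie below 0, and the widest spread is among the other coactivators.

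With oil, none of the 81 genes was called between strains in limma, against 0.117% of all features. With P4, 10 were (12.3%), below the 16% of all features. Arid1b (0.29), Cited2 (1.18), Hdac7 (0.43), Sra1 (0.62) and Tacc1 (0.34) were higher in PRB, and Cdk8 (-0.24), Ctbp2 (-0.24), Hmgb1 (-0.47), Sin3a (-0.23) and Tbl1x (-0.19) were lower. Of the lower genes, Cdk8 lost the call under 7 of 26 alternatives, and Hmgb1 and Tbl1x each under 6, while Ctbp2 and Sin3a kept it under all 26. For Cdk8 these included leaving out the first, the third or the fourth PRA P4 library or the first or the third PRB P4 library (adjusted p up to 0.0795). For Hmgb1 they included the first, the second or the fourth PRA P4 library and the first or the fourth PRB P4 library (up to 0.0925), and for Tbl1x the second, the third or the fourth PRA P4 library and the second PRB P4 library (up to 0.0846). Arid1b, the paralog of Arid1a and its alternative in the complex, rose in both strains, by 0.23 in PRA (limma, adjusted p = 0.0012) and 0.54 in PRB (adjusted p = 3.65e-07). In the difference of the responses 4 of 81 were called (4.94%), against 2.28% of all features in either direction. All 4 had the larger rise in PRB, and 1.47% of all features were called higher. They were Sra1 (0.64, adjusted p = 0.000773), Cited2 (1.08, adjusted p = 0.0348), Tacc1 (0.40, adjusted p = 0.0293) and Arid1b (0.31, adjusted p = 0.0448). Sra1 was called under all 25 alternatives, and Cited2 lost the call under 13, Tacc1 under 10 and Arid1b under 14 of them.

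The level of a gene and its P4 change went together over all features. In FPKM as deposited, the median change in PRA went from -0.20 among features of 1 to 5 FPKM to 0.13 at 20 to 40, 0.23 at 40 to 80 and 0.26 at 80 and over, and in PRB from -0.24 to 0.15, 0.25 and 0.23. Ncor1 and Arid1a, both at 40 to 80 FPKM, therefore changed less than the median feature of their level in both strains. Ep300 was below its level's median in PRA and above it in PRB. Nrip1 rose, and Ncoa2 and Crebbp fell, in a range (5 to 20 FPKM) whose medians were -0.06 and -0.07. After quantile normalization these medians lay between -0.05 and 0.02. Members are long transcripts, with 7.33 to 11.17 kb of exons each. Among the 1426 features of 7 kb or more, the median change was -0.02 in PRA and -0.06 in PRB, against 0.06 in each strain under 1.5 kb.

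**Figure D5:**
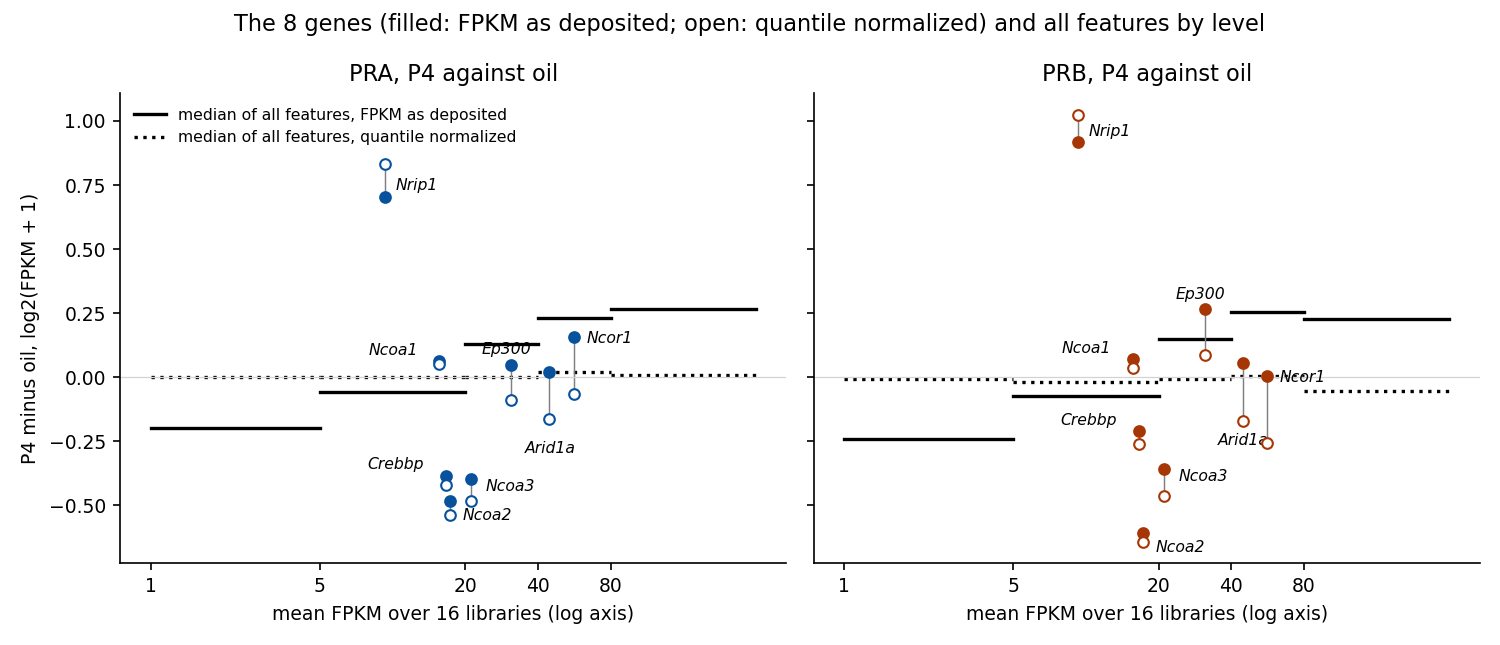
P4 minus oil on the log2(FPKM + 1) scale against the mean FPKM over 16 libraries (log axis), in PRA and PRB. Points are the 8 genes as deposited (filled) and after quantile normalization (open), and lines are medians of all features by level, which climb up to 80 FPKM as deposited and stay near 0 after quantile normalization, where Ncor1 and Arid1a lie below 0.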

How the data were processed

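Whole-uterus RNA-seq was analysed in 16 libraries, 4 in each of 4 groups taken from the labels, and 0 columns of other samples were present. The authors deposited 1 table of FPKM values per gene symbol. The submitters' processing notes list Cuffdiff, Cufflinks 2.0.2, TopHat2 2.0.4 and mm10 without saying what each did. Which annotation was used, whether strand was counted and how libraries were scaled is not given in the sources used here. FPKM are not counts, so no count test was run. Of 31274 features, 7717 were at 0 in every library.

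The fit was limma 3.58.1 in R 4.3.3 on log2(FPKM + 1) of 15408 features, those averaging 1 FPKM or more over the libraries, with 1 mean per group, a variance trend and Benjamini-Hochberg adjustment over all features, at a threshold of 0.05. Fold changes on this scale understate the change of low genes. The fit was tested on simulated data with known changes. The labels call replicates biological without saying that each is a separate animal, so p-values measure the spread between these libraries. Gene positions and exon lengths came from GENCODE M21 (mm10), with a length for 93.2% of features tested, and upstream sequences from RefSeq (GRCm38.p6). The depth was implied from 9139 single-transcript features over 800 bp, within a range of depths set beforehand. Proportions were tested with exact permutation tests in scipy 1.17.1.

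The 8 members, the coregulator list, the marker lists and the proportions were chosen with earlier results of these data known. Named genes are the members, Pgr, up to 4 called genes with the largest change in either P4 comparison in each coregulator group, every coregulator called between strains or in the difference of responses, and the 3 genes most like each member; the text gives some of these. Alternatives were a pseudocount of 0.1, no filter, a filter of 5 FPKM, median-ratio scaling, quantile normalization, the libraries of a comparison alone, no variance trend, library weights, a replicate block, removal of a length trend, and leaving out each library. Quantile normalization of the proportions was added after the data were seen.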

Additional observations from a re-analysis of the deposited data

Results flagged for a closer look

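In 1 of the 32 member-by-group sets of 4 libraries, the lowest value was farther from the others than Dixon's 95% limit: Arid1a at 39.8 FPKM in the third PRB P4 library, where the other PRB P4 libraries lay between 46.4 and 47.4. Chance flags about 1 in 20 such sets. The same library had the highest Nrip1 value of its group and the lowest Pgr value.

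Of the wider coregulator list, 4 genes responded to P4 differently in the strains by the limma test of the difference itself, all with the larger rise in PRB. They were 4.94% of the 81 tested, against 2.28% of all features. On the log2(FPKM + 1) scale the differences were 0.644 for Sra1, 1.08 for Cited2, 0.404 for Tacc1 and 0.312 for Arid1b. Without the third PRB P4 library they were 0.607 (adjusted p = 0.000781), 1.26 (adjusted p = 0.00349), 0.443 (adjusted p = 0.0148) and 0.255 (adjusted p = 0.0251). Of 25 alternatives, Cited2 lost the call under 13, Tacc1 under 10 and Arid1b under 14, and Sra1 kept it under all.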

How the results depend on the processing

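Of the 40 values of the members (8 genes in 5 comparisons), 31 kept their side of the threshold, and their direction where called, under all of their alternatives (26, and 25 for the difference of responses, which has no fit on the libraries of the contrast alone). Under quantile normalization the P4 change of Ncor1 was -0.065 in PRA (limma, adjusted p = 0.172) and -0.26 in PRB (adjusted p = 6.6e-05). That of Arid1a was -0.16 and -0.17, that of Ctbp2 in PRA -0.10 and that of Hdac3 in PRB -0.027. That of Ncoa5 was -0.11 in PRA and -0.060 in PRB. Each sign was opposite to that in FPKM as deposited. There only Ncor1 in PRA, Hdac3 in PRB and Ncoa5 in PRB were called, all higher. The cause was not tested. After removal of the length trend Ncor1 rose in PRB (0.12, adjusted p = 0.016), and Ep300 was higher in PRB than PRA with P4 (0.22, adjusted p = 0.0145).

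Members called between strains with P4 numbered 3 with library weights (Ncor1, Ncoa2 and Ep300), 2 with the libraries of the comparison alone, and 1 to 2 when a library was left out. Over all features, 30.6% were called with library weights and 10.6% with those libraries alone, against 16%. Of the wider list, 16 were called between strains with P4 with library weights, against 10, and 7 to 12 when a library was left out. In the difference of responses 1 was called under quantile normalization and 2 without a filter, against 4, and 1 to 5 when a library was left out; the cause of these shifts was not tested. With the replicate block, 5 members were called in PRA, 5 in PRB, 0 between strains with oil, 1 with P4 and 0 in the difference of responses, and 60, 61, 0, 11 and 3 of the wider list. The numbers did not pair the libraries: deviations of same-numbered libraries correlated at -0.23 to 0.31 (median 0.03), 6 of 24 pairs exceeded 0.1, and 4 libraries correlated best with their own number. With 1 library left out, 4 against 3 cannot reach an exact p under 0.05, so the proportions were not retested that way. The implied fragment counting error at the lowest value of each member was 0.569% to 1.89%.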
